A study of Mus musculus with 22 samples.

Results

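The thymus of Tol mice was compared with the thymus of wild-type (WT) littermates by RNA sequencing. Members are the 8 libraries whose titles name the thymus, 4 labelled Tol and 4 labelled WT, of 22 libraries in the series. All mice are of the C57BL/6 strain. Tol mice carry 1 copy of a transgene, inserted 3′ of Col1a1 by cassette exchange in C57BL/6J embryonic stem cells, in which the broadly active CAG promoter drives an open reading frame of shuffled fragments of reporter and modifier proteins. WT littermates lack it. The study used young adult mice in its experiments, and whether Tol mice stem from 1 or more stem cell clones is not given in the sources used here. The comparison asks whether the transgene changes the transcriptome of an organ in which tolerance is made. Every gene other than the Tol transcript entered it, and the text is arranged by pathway and cell type.

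In the thymus, immature thymocytes rearrange their T cell receptor genes and are selected by cortical and medullary epithelium, dendritic cells and B cells that display self peptides. Most thymocytes die there, and they are highly sensitive to glucocorticoids. Fibroblasts and vessels form the capsule and septa, a mesothelium covers nearby surfaces, and fat and lymph nodes lie close to the organ, so that whole-organ RNA holds transcripts of all of these.

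Library totals ran from 18519829 to 34776973 estimated counts in Tol and from 16319117 to 29145285 in WT thymus, with Tol 1 and WT 4 well above the rest. The Tol transcript had 448 to 1023 counts in the Tol libraries and 0 or 1 in the WT libraries. Levels are given as CPM, counts scaled to a common library total by the trimmed mean of M values (TMM), and differences are log2 fold changes of Tol over WT from edgeR's quasi-likelihood fit, with their standard errors (SE). The markers of the organ were present. Cd3e, a chain of the T cell receptor complex, had 509 to 611 CPM in Tol, against 523 to 542 in WT thymus. Cd8a was at 1395 to 1706 CPM over the 8 libraries, the cortical epithelial protease gene Prss16 at 717 to 874 and the medullary regulator gene Aire at 22.4 to 32. The muscle gene Acta1 and the parathyroid genes Gcm2 and Pth were under the filter on low counts. In whole-organ RNA, fewer cells of a type and less RNA per cell cannot be told apart.

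Of 16248 genes tested, 16 had an adjusted p under 0.05, which is 0.0985% of them. Higher in Tol thymus were 9 genes (0.0554%) and lower were 7 (0.0431%). In each the 4 Tol and 4 WT values did not overlap, as in 11.8% of all genes tested (5.8% higher and 5.95% lower). A wider margin held many more genes: 24.4% of all genes had an unadjusted p under 0.05 (13.3% higher and 11.1% lower), and 6.56% an adjusted p under 0.10 (3.51% higher and 3.05% lower). The median log2 fold change was 0.01, and the coefficient of variation between mice was 11.2%. The number of called genes rested on single libraries. It was 0 without Tol 2, Tol 4, WT 1, WT 2 or WT 3, 7 without WT 4, 97 without Tol 3 and 2981 without Tol 1, and DESeq2 called 1296 genes with all libraries (7.98%, of which 4.21% higher and 3.77% lower).

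**Figure D1:**
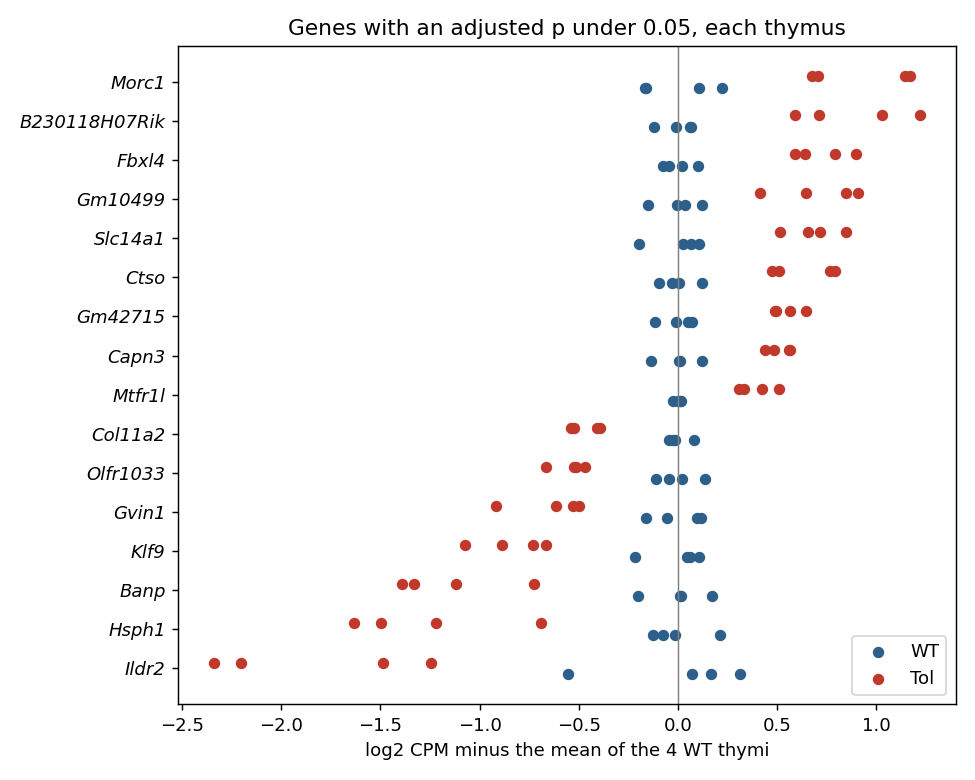
Rows are the 16 genes past the threshold, and each point is 1 thymus (red, Tol; blue, WT). The horizontal axis is log2 CPM minus the mean of the 4 WT thymi. All red points lie to 1 side of all blue points in every row, with Mtfr1l the narrowest change (0.40) and Ildr2 the widest (-1.80).

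Among the genes that rose, several encode mitochondrial, lysosomal or membrane proteins. Fbxl4 (chr4:22357543-22434091 in GRCm38, plus strand) encodes an F-box protein of the outer mitochondrial membrane that restrains mitophagy. It was at 18.3, 21.8, 17.6 and 20.3 CPM in Tol 1 to Tol 4 and at 11.1, 11.4, 11.9 and 12.6 CPM in WT 1 to WT 4. The lowest Tol thymus was well above the highest WT thymus (log2 fold change 0.73, SE 0.09, edgeR adjusted p = 0.0252). Ctso (chr3:81932601-81956725, plus strand), the gene of the lysosomal cysteine protease cathepsin O, was at 46.8, 56.9, 45.7 and 55.9 CPM in Tol and 32.2, 35.7, 30.7 and 33.0 CPM in WT thymus (0.64, SE 0.09, edgeR adjusted p = 0.0296). Slc14a1, on chromosome 18, encodes the urea transporter of red cells and other tissues, and had 20.2 to 25.4 CPM in Tol against 12.3 to 15.2 in WT thymus (0.68, SE 0.09, edgeR adjusted p = 0.0296). Mtfr1l, a member of the mitochondrial fission regulator family, had the tightest WT values of these genes, 44.3 to 45.5 CPM, against 55.7 to 64.1 in Tol thymus (0.40, SE 0.06, edgeR adjusted p = 0.0417).

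Morc1, a germ cell gene needed for transposon silencing in the testis, also rose. Its values were 12.6, 17.8, 12.9 and 17.5 CPM in Tol and 7.03, 7.05, 9.22 and 8.49 CPM in WT thymus (0.93, SE 0.14, edgeR adjusted p = 0.0481). Tol 2 and Tol 4 were the highest for this gene, as they were for Fbxl4, Ctso and Mtfr1l.

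The other 4 genes that rose overlap a neighbour, and whether the counting used strand is not given in the sources used here, so their counts are uncertain. Capn3, the gene of a calcium-dependent protease best known from muscle, rose from 42.1 to 50.3 CPM in WT to 62.8 to 68.6 CPM in Tol thymus (0.51, SE 0.07, edgeR adjusted p = 0.0280) and shares exons with Ganc. Gm42715 shares exons with Srcap and Tmem265 (0.55, SE 0.07, edgeR adjusted p = 0.0252), and the pseudogene Gm10499 lies opposite 2410017I17Rik (0.72, SE 0.11, edgeR adjusted p = 0.0417).

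B230118H07Rik (chr2:101560781-101649532, minus strand) overlaps Rag1 on its own strand and Rag2 on the other. It was at 25.1, 35.9, 23.2 and 31.4 CPM in Tol and 16.1, 15.3, 14.2 and 16.1 CPM in WT thymus (0.90, SE 0.13, edgeR adjusted p = 0.0337). Rag1, a subunit gene of the recombinase that joins T cell receptor segments, had the opposite sign, with 4607, 3402, 4503 and 3107 CPM in Tol and 5399, 5161, 4846 and 5784 CPM in WT thymus. The groups were apart, but the gene did not pass (-0.44, SE 0.13, edgeR adjusted p = 0.0928). Tol 2 and Tol 4, the lowest for Rag1, were the highest for B230118H07Rik, and whether reads moved between the overlapping genes was not tested.

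Of the genes that fell, Klf9 (chr19:23141226-23168134, plus strand) encodes a Krüppel-like transcription factor that glucocorticoids induce in many tissues. It was at 10.9, 8.58, 11.4 and 9.80 CPM in Tol and 18.9, 19.5, 18.7 and 15.6 CPM in WT thymus (-0.83, SE 0.11, edgeR adjusted p = 0.0280). Gvin1, a very large GTPase gene induced by interferon, was at 37.1 to 49.5 CPM in Tol, against 62.7 to 76.0 in WT thymus (-0.63, SE 0.09, edgeR adjusted p = 0.0417). Col11a2, a fibrillar collagen chain of cartilage, was at 12.7 to 14.1 CPM against 17.9 to 19.5 (-0.47, SE 0.07, edgeR adjusted p = 0.0481). Olfr1033, annotated as an olfactory receptor, was at 11.6 to 13.3 CPM against 17.0 to 20.2 (-0.54, SE 0.08, edgeR adjusted p = 0.0417). Banp, Ildr2 and the chaperone gene Hsph1 were the other 3 genes that fell, with log2 fold changes of -1.12, -1.80 and -1.22. Banp and Ildr2 each overlap a gene on the opposite strand.

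At an adjusted p under 0.10, 53 genes differed by more than 1 log2 unit, 10 with higher and 43 with lower values in Tol thymus. Immunoglobulin segments were 10 of the 53, beside 121 of the 16248 genes tested. Beyond Banp, Hsph1 and Ildr2, none of those named here passed 0.05. Sdr39u1, of the short-chain dehydrogenase family, was at 7.302, 16.0, 10.6 and 14.9 CPM in Tol, against 5.29 to 5.69 in WT thymus (1.14, SE 0.21, edgeR adjusted p = 0.0617). It overlaps Khnyn on the other strand. The steroid sulfate transporter gene Slc10a6 (-1.90, SE 0.34, edgeR adjusted p = 0.0617) was rare, at 0.149 to 0.387 CPM in Tol, against 0.696 to 1.24 in WT thymus. Slc10a6 passed the filter on low counts only through the WT libraries, which favoured a lower value in Tol. Sema3d, a secreted guidance factor gene, had 1.43 to 1.99 CPM against 2.41 to 4.35 CPM (-1.04, SE 0.21, edgeR adjusted p = 0.0689), and the pseudogene Gm9845 had a log2 fold change of -1.27.

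Heat shock chaperones keep proteins folded, and their genes share the transcription factor HSF1. Of 20 such genes tested, 18 had lower values in Tol thymus, with a median log2 fold change of -0.23 beside 0.01 for all genes, and in 11 the groups did not overlap with Tol lower, as in 5.95% of all genes. Unadjusted p was under 0.05 in 12 that were lower and 1 that was higher, beside 11.1% and 13.3% of all genes, and only Hsph1 fell past the threshold. The mean level of the 20 genes on log2(CPM + 1) was 6.42, 6.46, 6.60 and 6.42 in Tol and 6.82, 6.72, 6.69 and 6.69 in WT thymus. All 4 Tol values lay under all 4 WT values, with Tol 3 the nearest to them.

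Hsph1, which encodes an exchange factor of the HSP110 type, was at 60.4, 45.4, 87.3 and 49.9 CPM in Tol and 163, 139, 129 and 134 CPM in WT thymus. Hspa8, the constitutive Hsp70 gene and the most abundant of these, was at 1648, 1489, 2049 and 1431 CPM in Tol and 2722, 2279, 2423 and 2372 CPM in WT thymus (-0.57, SE 0.11, edgeR adjusted p = 0.0648). Hspa1b, an inducible Hsp70 gene, was at 16.8 to 19.9 CPM in Tol, against 22.5 to 32.2 in WT thymus (-0.63, SE 0.12, edgeR adjusted p = 0.0649). Its near copy Hspa1a can share its reads, so the split between them is uncertain. Chordc1, an Hsp90 partner, was at 101, 100, 131 and 104 CPM against 162, 144, 144 and 148 CPM (-0.46, SE 0.09, edgeR adjusted p = 0.0638). In these 4 genes Tol 3 was the highest Tol thymus and still below the WT thymi. Without Tol 2 and Tol 4 together, 17 of the 20 genes were lower, with a median of -0.18.

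**Figure D2:**
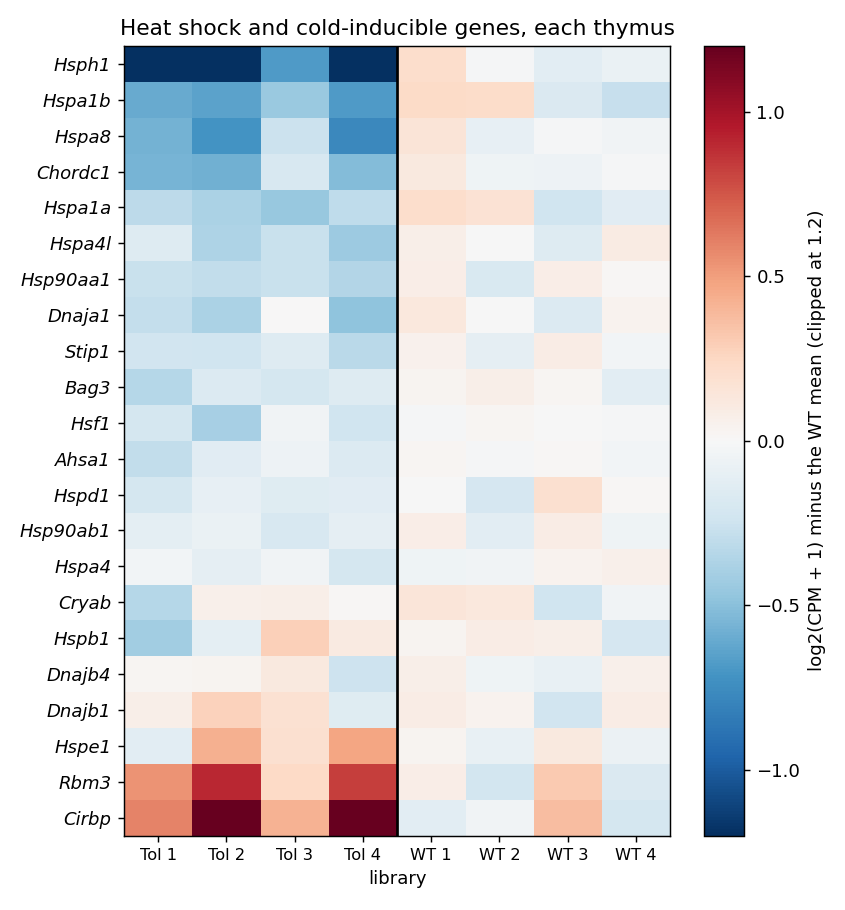
Each row is a heat shock or cold-inducible gene and each column a thymus, and colour gives log2(CPM + 1) minus the mean of the 4 WT thymi, clipped at 1.2. The 4 Tol columns are blue for most chaperone genes and red for Rbm3 and Cirbp, most strongly in Tol 2 and Tol 4.

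The bases before the RefSeq start (GRCm38.p6) are shown for 3 of these genes that hold paired heat shock units, 1 that fell, 1 with an adjusted p under 0.10 and Hspb1, whose log2 fold change was -0.02. Capitals mark pairs of inverted heat shock units, GAANNTTC or TTCNNGAA, which read the same on both strands. The last 10 bases before the Hsph1 start are left off.
Hsph1, chr5:149636347-149636586, minus strand: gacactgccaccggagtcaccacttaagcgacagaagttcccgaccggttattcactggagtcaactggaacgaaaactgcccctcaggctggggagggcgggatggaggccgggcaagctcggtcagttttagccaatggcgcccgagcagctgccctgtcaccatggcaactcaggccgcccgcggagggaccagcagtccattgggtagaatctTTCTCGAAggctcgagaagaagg
Hspa1b, chr17:34959239-34959488, minus strand: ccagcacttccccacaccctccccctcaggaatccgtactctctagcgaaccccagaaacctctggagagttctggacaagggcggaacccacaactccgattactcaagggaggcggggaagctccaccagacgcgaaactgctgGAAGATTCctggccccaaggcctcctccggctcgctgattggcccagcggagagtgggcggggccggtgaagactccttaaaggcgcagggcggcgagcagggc
Hspb1, chr5:135887669-135887918, plus strand: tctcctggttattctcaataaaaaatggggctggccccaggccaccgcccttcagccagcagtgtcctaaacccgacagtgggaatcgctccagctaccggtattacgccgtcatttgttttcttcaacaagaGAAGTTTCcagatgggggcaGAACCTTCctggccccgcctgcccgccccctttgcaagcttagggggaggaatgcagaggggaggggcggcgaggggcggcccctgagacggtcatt

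RefSeq windows of 250 bases were at hand for 15 of the 20 chaperone genes. GAANNTTC was in 6 of them and TTCNNGAA in 4, or 40% and 26.7%, beside 6.25% and 7.23% of the 11688 tested genes with a window. The 3-unit element, GAANNTTC followed directly by NNGAA, searched on both strands and overlapping both pairs, was in Hspd1 and Hspe1, which is 13.3% beside 0.436%. Hspd1 and Hspe1 share a start region and had log2 fold changes of -0.15 and 0.26. Of the 8 genes with matched letters, Hsph1, Hspa1b and Hspa1a (-0.42) had lower values in each Tol thymus, and the groups overlapped for Dnaja1 (-0.28), Dnajb4, Hspb1, Hspd1 and Hspe1.

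Cirbp and Rbm3 encode RNA-binding proteins that rise in cooled cells. Cirbp was at 71.8, 125, 63.2 and 111 CPM in Tol and 43.1, 45.6, 61.2 and 40.6 CPM in WT thymus, without overlap (0.96, SE 0.21, edgeR adjusted p = 0.0715). Rbm3 was at 413, 533, 336 and 504 CPM in Tol and 299, 243, 352 and 252 CPM in WT thymus, where Tol 3 was below WT 3 (0.64, SE 0.15, edgeR adjusted p = 0.0830). Neither passed 0.05. Without Tol 2 and Tol 4 the median of both was 0.45 in place of 0.80.

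Protein damage in the endoplasmic reticulum is met by chaperones and degradation factors under ATF6 and XBP1, and by an arm through ATF4 that serves amino acid supply. Of 20 ATF6 and XBP1 targets, 16 had lower values in Tol thymus, with a median of -0.12, and 9 had an unadjusted p under 0.05 with Tol lower, beside 11.1% of all genes. No member passed an adjusted p of 0.05, and DESeq2 called 4 lower, beside 3.77% of all genes. Hspa5, the main chaperone of that compartment, was at 293, 306, 340 and 310 CPM in Tol and 364, 363, 363 and 383 CPM in WT thymus (-0.24, SE 0.06, edgeR adjusted p = 0.0863). Pdia4 and Dnajb9 had log2 fold changes of -0.22 and -0.24, each without overlap.

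The ATF4 list was split, with 13 of 22 genes higher and a median of 0.04, or 10 of 22 and -0.01 without Tol 2 and Tol 4. Atf4 itself was at 117, 144, 138 and 139 CPM in Tol, against 107 to 110 in WT thymus (0.32, SE 0.07, edgeR adjusted p = 0.0715). All Tol thymi were above all WT thymi, and Tol 1 was the nearest. The serine synthesis gene Psph (0.29) was likewise higher in each Tol thymus, while the stress factor gene Atf3 had 2.34 to 3.98 CPM in Tol, against 2.99 to 9.22 in WT thymus (-0.80, SE 0.32). The p53 list had 12 of 15 genes lower (median -0.09), and the NRF2 list, of the oxidative stress response, 7 of 14 (median 0.00). In neither did a gene pass an adjusted p of 0.10.

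Glucocorticoids kill thymocytes and act through the receptor encoded by Nr3c1. Of the receptor and 16 target genes, 14 had lower values in Tol thymus, with a median of -0.18, and in 6 the groups did not overlap, beside 5.95% of all genes. Klf9, described above, passed the threshold, and with it 6 had an adjusted p under 0.10, all with lower values, beside 3.05% of all genes. Without Tol 3 the median was -0.30. Per1, a clock gene with glucocorticoid-bound enhancers, was at 36.3, 35.5, 35.4 and 33.3 CPM in Tol and 45.8, 50.4, 45.9 and 42.6 CPM in WT thymus (-0.39, SE 0.07, edgeR adjusted p = 0.0566). Bcl2l11, the gene of the death protein Bim, was at 78.3 to 90.9 CPM against 97.9 to 106 (-0.29, SE 0.06, edgeR adjusted p = 0.0693). Il7r, the interleukin-7 receptor gene, was at 56.3 to 61.1 CPM against 67.1 to 82.3 (-0.35, SE 0.08, edgeR adjusted p = 0.0715). Nr3c1, named since it encodes the receptor, was at 221 to 287 CPM against 302 to 331 (-0.33, SE 0.08, edgeR adjusted p = 0.0843).

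Tsc22d3, another direct target, overlapped between the groups, with 107 to 140 CPM in Tol, against 117 to 210 in WT thymus. The response element, GNACA followed directly by NNNTGTNC on either strand, was in the 250 bases before the start of 2 of 15 list genes with a window, Mt1 and Sgk1, or 13.3% beside 0.351% of tested genes. Mt1 and Sgk1 had log2 fold changes of 0.06 and 0.02. Of 18 clock genes, Per1 among them, 13 were lower with a median of -0.11 (-0.04 without Tol 2 and Tol 4), and Dbp had higher values (0.27, edgeR unadjusted p = 0.0142).

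**Figure D3:**
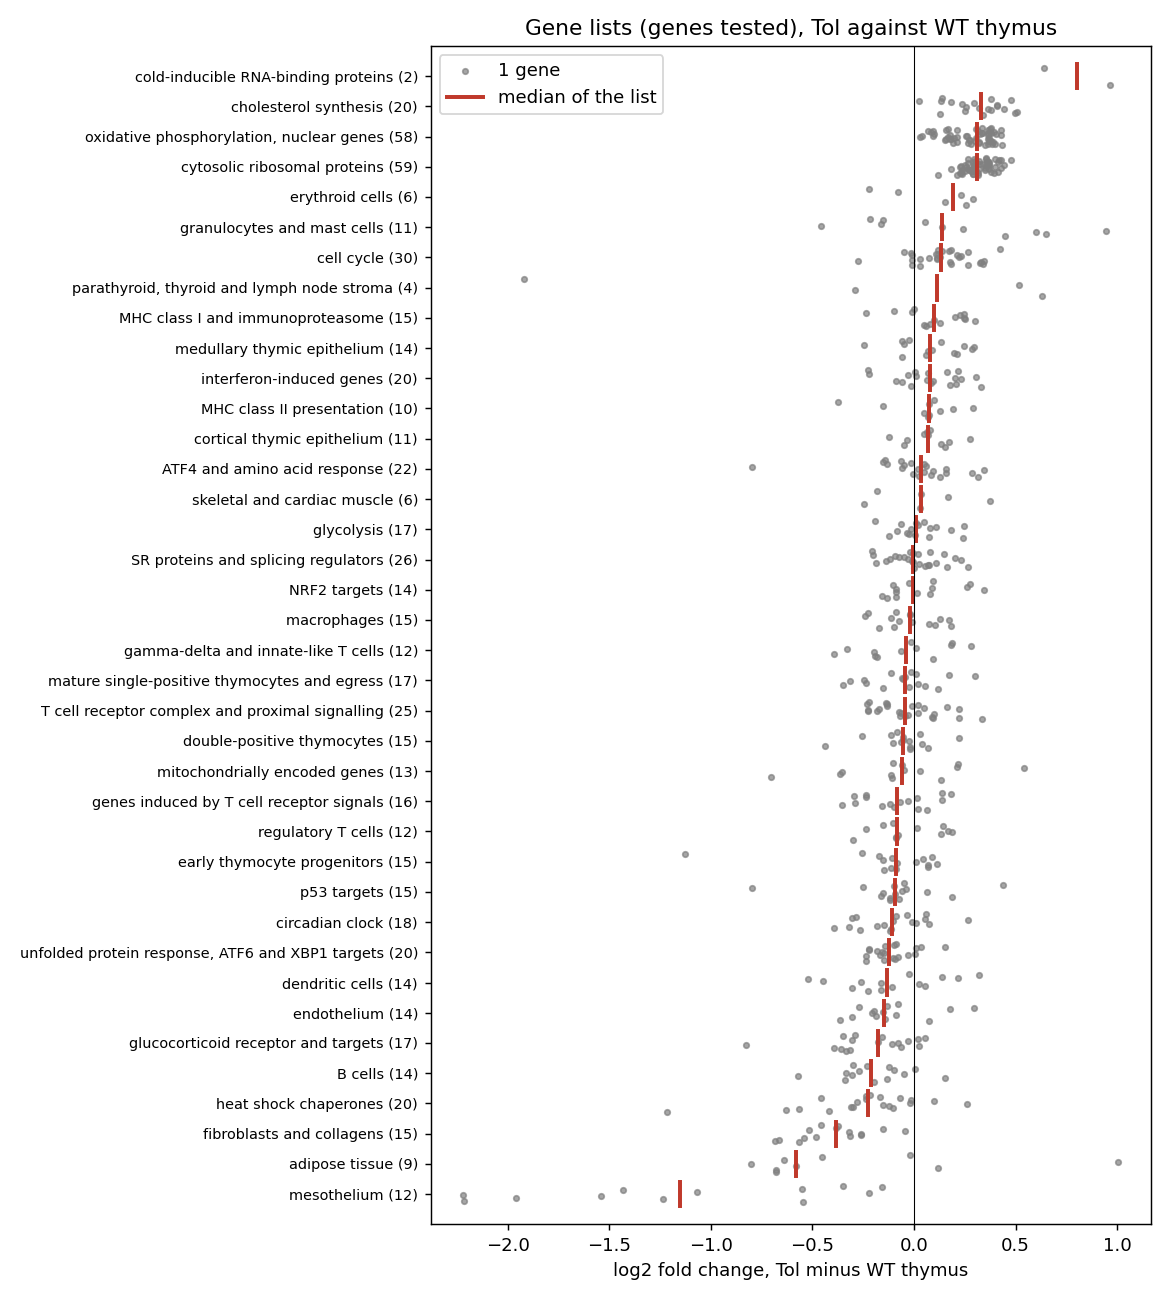
Each grey point is the log2 fold change of 1 gene, grouped by list with the number tested in parentheses, and red bars are list medians. Lists of ribosomal protein, respiratory chain and cholesterol genes lie wholly above 0, and those of fibroblasts and mesothelium wholly under 0.

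Cytosolic ribosomal protein genes were higher in Tol thymus in all 59 members tested (51.4% of all genes were higher), with a median of 0.31. Of these, 51 had an unadjusted p under 0.05 and 9 an adjusted p under 0.10, beside 13.3% and 3.51% of all genes in that direction. None passed an adjusted p of 0.05, and 25 did with DESeq2, beside 4.21% of all genes. Rps24, of the small subunit, was at 868, 1271, 1022 and 1381 CPM in Tol and 826, 760, 880 and 791 CPM in WT thymus (0.48, SE 0.13, edgeR adjusted p = 0.0863). Tol 2 and Tol 4 stood high, while Tol 1 was within the WT range. Rpl13, of the large subunit, was at 151, 204, 176 and 196 CPM against 133, 127, 152 and 141 (0.39, SE 0.10, edgeR adjusted p = 0.0838).

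The mean level of all 59 genes on log2(CPM + 1) was 8.08, 8.55, 8.23 and 8.57 in Tol and 8.01, 7.93, 8.20 and 8.08 in WT thymus. In 56 of the 59 the groups overlapped, and in 3 they did not, with Tol higher, beside 5.8% of all genes. Leaving out Tol 2 and Tol 4 brought the median to 0.10, with 58 genes still above 0 and 4 with an unadjusted p under 0.05. Leaving out Tol 1 instead gave a median of 0.41, and 51 genes then had an adjusted p under 0.05, among 1594 genes with higher values that passed of 16337 tested in that fit.

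Nuclear genes of oxidative phosphorylation, which make the respiratory chain and ATP synthase, had a similar pattern. All 58 were higher in Tol thymus, with a median of 0.31, of which 43 had an unadjusted p under 0.05 (13.3% of all genes), 22 an adjusted p under 0.10 (3.51% of all genes) and none one under 0.05. Cox5b, of complex IV, was at 96.1, 117, 98.4 and 116 CPM in Tol and 87.4, 79.8, 88.2 and 83.0 CPM in WT thymus, without overlap (0.34, SE 0.08, edgeR adjusted p = 0.0809). Ndufb10, of complex I, was at 57.0 to 77.3 CPM against 45.1 to 54.5 (0.38, SE 0.09, edgeR adjusted p = 0.0843). Without Tol 2 and Tol 4, 54 of the 58 were above 0, with a median of 0.14.

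The 13 genes encoded in mitochondrial DNA, which join these subunits in the same complexes, were not shifted as a group, with 5 higher and 8 lower and a median of -0.06, which was 0.05 without WT 4. The lowest p belonged to mt-Co2, at 2675, 3226, 2361 and 2238 CPM in Tol and 1753, 1710, 1648 and 2101 CPM in WT thymus (0.54, SE 0.12, edgeR adjusted p = 0.0737). The opposite extreme was mt-Nd3 (-0.70, SE 0.24, edgeR adjusted p = 0.122). Glycolysis genes were 10 higher of 17, with a median of 0.01, which was -0.03 without Tol 2 and Tol 4 and -0.04 with length and GC trends removed.

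**Figure D4:**
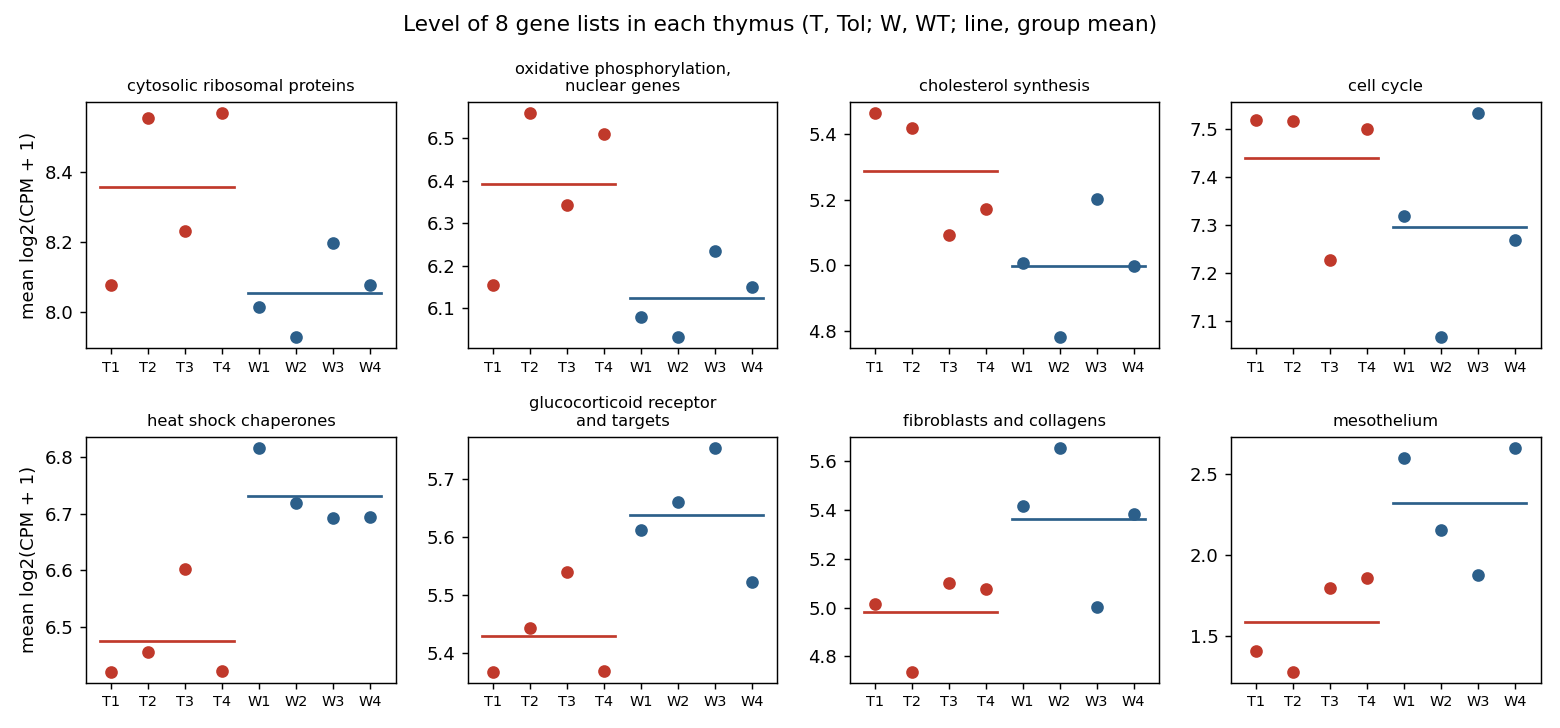
Mean log2(CPM + 1) of 8 gene lists in each thymus (red, Tol 1 to 4; blue, WT 1 to 4; lines, group means). Tol 2 and Tol 4 stand above all others for ribosomal protein genes, and Tol 1 and Tol 2 for cholesterol synthesis, while all Tol thymi lie under all WT thymi for heat shock chaperones and mesothelium.

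Cholesterol synthesis, which proliferating thymocytes use for membranes and which SREBP2 controls, had 20 of 20 genes higher in Tol thymus, with a median of 0.33. Of these, 13 had an unadjusted p under 0.05 (13.3% of all genes), 2 an adjusted p under 0.10 (3.51% of all genes) and none one under 0.05. Pmvk, phosphomevalonate kinase, was at 18.1, 22.8, 17.3 and 20.4 CPM in Tol and 15.7, 11.1, 15.5 and 12.9 CPM in WT thymus (0.51, SE 0.12, edgeR adjusted p = 0.0838). Msmo1, a sterol oxidase gene, was at 17.95 to 24.97 CPM against 14.3 to 18.1 (0.41, SE 0.11, edgeR adjusted p = 0.0900). Idi1 (0.38) and Hmgcs1 (0.34) each overlapped between the groups. The level of the list was highest in Tol 1 and Tol 2, at 5.46 and 5.42, while Tol 3 and Tol 4, at 5.09 and 5.17, were under WT 3, at 5.20.

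Hmgcs1, the synthase at the start of the pathway, is shown since it alone of 14 list genes with a window held the sterol regulatory letters TCACNCCAC (either strand, in capitals) in the 250 bases before its start, or 7.14% beside 1.24% of tested genes.
Hmgcs1, chr13:119690101-119690350, plus strand: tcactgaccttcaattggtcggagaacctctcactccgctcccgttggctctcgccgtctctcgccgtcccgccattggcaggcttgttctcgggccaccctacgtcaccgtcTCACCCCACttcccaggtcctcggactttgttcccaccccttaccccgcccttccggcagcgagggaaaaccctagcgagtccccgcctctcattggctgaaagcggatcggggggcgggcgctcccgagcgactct
Hmgcs1 was at 96.2, 91.7, 70.3 and 73.2 CPM in Tol and 66.0, 56.8, 73.2 and 65.7 CPM in WT thymus, with WT 3 as high as Tol 4.

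Cell cycle genes were higher in 24 of 30 (51.4% of all genes were), with a median of 0.13, and 8 had an unadjusted p under 0.05 with Tol higher, beside 13.3% of all genes. The median was 0.07 without Tol 2 and Tol 4, 0.06 without WT 2, 0.21 without Tol 3 and 0.23 without WT 3. The survivin gene Birc5 was at 129, 143, 119 and 144 CPM in Tol and 103, 83.5, 115 and 97.3 CPM in WT thymus (0.42, SE 0.10, edgeR adjusted p = 0.0809), and the G1 cyclin gene Ccnd3 at 872 to 1037 CPM against 648 to 809 (0.35, SE 0.08, edgeR adjusted p = 0.0838). Both were without overlap. Its relative Ccnd2 had the opposite sign (-0.27, SE 0.09, edgeR adjusted p = 0.116). The list level spread widely within genotypes, from 7.23 in Tol 3 to 7.52 in Tol 1 and from 7.07 in WT 2 to 7.53 in WT 3, so that the groups overlapped.

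Splicing regulators were balanced, 12 higher and 14 lower with a median of 0.00 (20 higher and 0.06 without Tol 2 and Tol 4), and Srsf3 (0.27, SE 0.07, edgeR adjusted p = 0.0863) was at 475 to 559 CPM in Tol, against 420 to 471 in WT thymus.

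Shorter transcripts tended to have higher values in Tol thymus. The median log2 fold change was 0.09 in the tenth of genes with the shortest transcripts and -0.12 in that with the longest, and across 16199 genes, which are not independent replicates, Spearman's rho with transcript length was -0.253. Ribosomal protein and respiratory chain genes are short, with median lengths of 628 and 601 bases, and fibroblast genes are long, with 2461. Once each library's trends with length and GC content were removed, rho was -0.027, and the medians were 0.27 for ribosomal proteins (59 of 59 above 0), 0.25 for respiratory genes (57 of 58), 0.34 for cholesterol synthesis (19 of 20), -0.21 for heat shock chaperones (18 of 20 lower) and -0.33 for fibroblasts (14 of 15 lower). In the same fit 14 genes passed an adjusted p of 0.05, of which 11 were among the 16, and Gvin1, Olfr1033, Gm10499, Morc1 and Col11a2 did not pass.

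**Figure D5:**
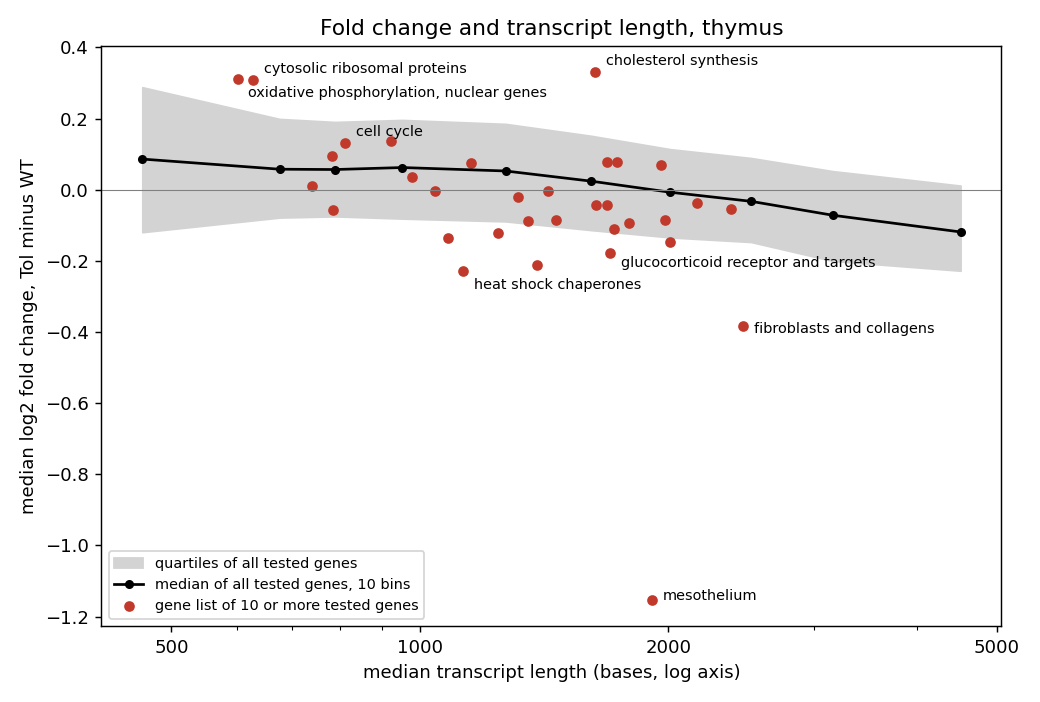
Black points are the median log2 fold change of all tested genes in 10 bins of transcript length (log axis), grey is their quartile range, and red points are gene lists of 10 or more tested genes at their median length. The black line runs from 0.09 to -0.12. The band is the spread of single genes and no limit for list medians, and the mesothelium list was chosen after its values were seen.

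Lists of thymocyte genes had medians near that of all genes. Of 15 genes that mark double-positive cells, the most common stage, 11 were lower, with a median of -0.05. Rag1 and Tcf7 were lower without overlap and Cd1d1 was higher without overlap, beside 5.95% and 5.8% of all genes. Without Tol 2 and Tol 4 the direction turned, with 10 of the 15 higher and a median of 0.04. Tcf7, a transcription factor of T cell commitment, was at 3193, 2959, 3259 and 2719 CPM in Tol and 3629, 3542, 3795 and 3512 CPM in WT thymus (-0.26, SE 0.07, edgeR adjusted p = 0.0944). Cd1d1, which selects natural killer T cells, was at 55.3 to 62.2 CPM against 47.6 to 54.7 (0.22, SE 0.07, edgeR adjusted p = 0.0972). Cd4 was at 886 to 1071 CPM in Tol, against 935 to 1041 in WT thymus, and Ptcra, the pre-T cell receptor chain, at 27.57 to 34.82 and 25.80 to 34.76.

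Other T cell lists had small medians too. Early progenitors had 9 of 15 lower (-0.09), the receptor complex and its first signalling steps 15 of 25 lower (-0.04), mature single-positive and egress genes 11 of 17 lower (-0.04), gamma-delta and innate-like genes 7 of 12 lower (-0.04) and regulatory T cells 7 of 12 lower (-0.08). These directions rested on few libraries. The gamma-delta median was 0.06 without Tol 2, that of regulatory T cells 0.02 without Tol 2 and Tol 4, and that of mature cells 0.00 without Tol 1. Foxp3, the defining factor of regulatory T cells, was at 3.78 to 4.24 CPM in Tol, against 4.10 to 6.54 in WT thymus (-0.30, SE 0.16, edgeR adjusted p = 0.264). Cd3d was at 288, 412, 370 and 382 CPM in Tol and 282, 281, 278 and 312 CPM in WT thymus (0.33, SE 0.10, edgeR adjusted p = 0.0993), with Tol 1 inside the WT range.

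Genes induced by signals through the T cell receptor mark selection. Of 16, 10 were lower, with a median of -0.08, and 5 had an unadjusted p under 0.05, all with lower values, beside 11.1% of all genes. Irf4 was at 22.34, 20.96, 21.96 and 18.70 CPM in Tol, against 25.3 to 26.8 in WT thymus (-0.30, SE 0.07, edgeR adjusted p = 0.0838). The NF-kappaB subunit gene Rel (-0.24, SE 0.06, edgeR adjusted p = 0.0863) and the death gene Bcl2l11 were also lower without overlap, whereas Egr2 (-0.35) overlapped. Among T cell receptor segments, 60 of 164 tested were higher and 104 lower, with a median of -0.11, none past an adjusted p of 0.05.

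Thymic epithelium had medians slightly above that of all genes, which for the cortical list rested in part on Tol 2 and Tol 4. Cortical genes had 8 of 11 higher (median 0.07), or 5 of 11 without Tol 2 and Tol 4 (-0.01), led by the Notch ligand gene Dll4 (0.28) and the chemokine gene Ccl25 (0.17), both with overlap. The thymoproteasome gene Psmb11 was at 146 to 178 CPM in Tol, against 135 to 151 in WT thymus, and the master regulator Foxn1 at 32.5 to 34.9 and 28.3 to 32.5. Medullary genes had 9 of 14 higher (median 0.08), or 11 of 14 without Tol 2 and Tol 4 (0.10). Their median was 0.03 without WT 4. Epcam, an epithelial adhesion gene, was at 35.7, 44.8, 41.7 and 41.4 CPM in Tol, against 33.5 to 35.3 in WT thymus (0.25, SE 0.07, edgeR adjusted p = 0.0982). Cd80, a costimulatory ligand gene, was the 1 medullary member with lower values in each Tol thymus (-0.24, SE 0.10, edgeR adjusted p = 0.180), beside 5.95% of all genes. The tissue antigen regulators Aire (-0.06) and Fezf2 (0.06) overlapped between the groups.

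Antigen presentation by MHC class I had 12 of 15 genes higher, with a median of 0.10, and 7 had an unadjusted p under 0.05 with Tol higher, beside 13.3% of all genes. The median was 0.03 with length and GC trends removed and 0.05 without Tol 2 and Tol 4, when 1 gene had such a p. Tap2, a subunit gene of the peptide transporter, was at 257, 335, 274 and 284 CPM in Tol, against 227 to 238 in WT thymus (0.30, SE 0.08, edgeR adjusted p = 0.0863). The immunoproteasome gene Psmb9 was at 89.1 to 111 CPM against 83.5 to 85.8 (0.25, SE 0.08, edgeR adjusted p = 0.111) and overlaps Tap1 on the other strand. MHC class II genes had 8 of 10 higher (median 0.07), and 5 of 10 without Tol 2 and Tol 4 (0.00). Ciita, which switches them on, had 42.1 to 54.6 CPM in Tol, against 52.3 to 67.1 in WT thymus (-0.38, SE 0.10, edgeR adjusted p = 0.0861). Interferon-induced genes had 14 of 20 higher, with a median of 0.08, although Gvin1, which fell, is induced by interferon too.

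Of the connective tissue, 15 of 15 fibroblast and collagen genes had lower values in Tol thymus, with a median of -0.38, and 10 had an unadjusted p under 0.05, beside 11.1% of all genes. None passed an adjusted p of 0.05, and 7 did with DESeq2, beside 3.77% of all genes. Without Tol 2 and Tol 4 the median was -0.24, with 14 of 15 lower. Col1a2 was at 31.4, 28.5, 41.3 and 39.2 CPM in Tol and 52.6, 67.7, 39.5 and 64.9 CPM in WT thymus (-0.68, SE 0.16, edgeR adjusted p = 0.0835), with WT 3 inside the Tol range. WT 3 was also the lowest WT thymus for Col3a1 (-0.66) and for the level of the list, 5.004 against 5.39 to 5.66 in the other WT thymi. Col5a2 was the 1 member of 15 without overlap, beside 5.95% of all genes with Tol lower. It was at 16.4 to 19.6 CPM against 20.4 to 27.5 (-0.48, SE 0.10, edgeR adjusted p = 0.0710). Col1a1, next to the transgene, was at 23.2 to 32.5 CPM in Tol, against 26.5 to 52.4 in WT thymus (-0.57, SE 0.18, edgeR adjusted p = 0.110).

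Mesothelium, the lining of body cavities, gave the widest shift of any list, but it was written after lower values of its genes had been seen, so its direction is a description only. All 12 genes were lower, with a median of -1.15, or -0.76 without Tol 1 and WT 4. An adjusted p under 0.10 was found in 5, beside 3.05% of all genes with Tol lower, a count that the choice of genes favoured. Muc16, a surface mucin, was at 0.467, 0.110, 0.774 and 0.895 CPM in Tol and 3.01, 2.10, 1.11 and 4.10 CPM in WT thymus (-2.22, SE 0.48, edgeR adjusted p = 0.0715). Aldh1a2, an enzyme making retinoic acid, was at 0.715 to 1.94 CPM against 2.33 to 4.24 (-1.43, SE 0.31, edgeR adjusted p = 0.0746). Upk3b, a uroplakin, ranged from 0.055 CPM in Tol 2 to 5.07 in Tol 4 and from 4.89 in WT 3 to 16.7 in WT 1 (-2.22, SE 0.60, edgeR adjusted p = 0.0863). The Tol 2 values of Muc16 and Upk3b were under 3 counts, which is 0.162 CPM in that library, and count as not detectable. In both the mesothelium and the fibroblast list Tol 2 was the lowest thymus and WT 3 the lowest WT thymus. The highest was WT 4 for mesothelium and WT 2 for fibroblasts.

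Vessel genes had 11 of 14 lower, with a median of -0.15. The junction gene Cdh5 was at 14.47 to 16.50 CPM in Tol, against 17.25 to 21.98 in WT thymus (-0.36, SE 0.09, edgeR adjusted p = 0.0838), while Pecam1, which thymocytes also express, was at 146 to 162 and 142 to 152. Fat varied too widely to compare: Adipoq ran from 0.409 CPM in Tol 1 to 12.4 in Tol 3 and from 3.41 in WT 2 to 21.3 in WT 1, and the list had a median of -0.58, or 0.00 without WT 1, with no unadjusted p under 0.05. Of the lists for muscle (6 tested, median 0.03), erythroid cells (6 tested, 0.19) and parathyroid, thyroid and lymph node stroma (4 tested, 0.11), the first and the last changed sign with single libraries left out, and the erythroid median was 0.03 without WT 4.

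B cells live in the thymic medulla and in lymph nodes beside the organ. Of 14 B cell genes, 12 had lower values in Tol thymus, with a median of -0.21, and Pax5 and Cd22 were without overlap. Without WT 4, whose list level of 3.73 was the highest, the median was -0.07, and without Tol 2 and Tol 4 it was -0.10. Cd22, a lectin that dampens B cell receptor signals, was at 9.02 to 11.8 CPM in Tol, against 12.7 to 13.9 in WT thymus (-0.34, SE 0.10, edgeR adjusted p = 0.0960). Ms4a1, a B cell surface gene, was at 9.08 to 11.9 CPM in Tol and 9.83 to 16.9 in WT thymus, with overlap.

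Immunoglobulin segments differ between mice, since each animal has its own set of B cell clones. Of 121 tested, 87 were lower in Tol thymus and 34 higher, with a median of -0.51. The list level was 2.26 in WT 4, against 1.63 to 1.96 in the other WT thymi and 1.53 to 1.80 in Tol thymi. The median with libraries left out was not computed for this list. The kappa segment Igkv1-110 stood out in the other direction, at 20.6, 64.1, 27.5 and 11.1 CPM in Tol, against 5.32 to 6.69 in WT thymus (2.35, SE 0.44, edgeR adjusted p = 0.0617). Igkv3-12 was at 0.055 to 0.263 CPM against 0.681 to 1.39 (-2.32, SE 0.43, edgeR adjusted p = 0.0617). It passed the filter on low counts only through the WT libraries, which favoured a lower value in Tol. The heavy chain joining segment Ighj1 was at 1.93 to 2.83 CPM against 3.16 to 7.17 (-1.13, SE 0.23, edgeR adjusted p = 0.0693). Segments are near-copies of each other, so the counts of single ones are uncertain.

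Of the myeloid lists, macrophage and granulocyte genes were close to 0 or mixed, and dendritic cell genes leaned lower. Macrophage genes had 10 of 15 lower (median -0.02), dendritic cell genes 9 of 14 lower (-0.13) with Xcr1 at 8.55 to 12.2 CPM in Tol, against 11.7 to 14.0 in WT thymus, and granulocyte and mast cell genes 7 of 11 higher (0.14). In the dendritic cell list 5 genes had an unadjusted p under 0.05, all lower, beside 11.1% of all genes. Without Tol 2 only 1 did, and no member had an adjusted p under 0.10. Macrophage genes were 10 of 15 higher (0.04) without Tol 1 and 14 of 15 lower (-0.12) without Tol 2 and Tol 4, the granulocyte median was -0.08 without WT 1 and -0.01 without Tol 3, and the dendritic cell median was -0.08 without Tol 2. C1qa, a macrophage complement gene, was at 87.3 to 140 CPM in Tol, against 97.8 to 122 in WT thymus.

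Whether the effect of Tol in thymus differed from that in the cerebrum of the same groups was tested with a term for genotype by organ over 16 libraries. Of 17774 genes, 19 passed an adjusted p of 0.05 (0.107%), among them 6 of the 16 thymus genes. The count was 1111 without thymus Tol 1 and ranged from 2 to 42 without any other library. With the replicate number within each organ as a block it was 0, but this block does not link thymus to cerebrum. The paper's figure legend gives 4 Tol and 4 WT mice over the organs, without saying which libraries share a mouse. The test treated the 16 libraries as independent, so mice shared between organs were not accounted for. The 6 were Banp, Ildr2, Hsph1, Ctso, Slc14a1 and B230118H07Rik. Since the 16 genes were picked by low p in the same thymus libraries, this overlap was favoured and is a description only. In cerebrum the log2 fold change of Ctso was -0.08, and the difference between organs was 0.72 (SE 0.11, edgeR adjusted p = 0.0279). For Slc14a1 the cerebrum value was -0.23 and the difference 0.92 (SE 0.16, edgeR adjusted p = 0.0341), and for B230118H07Rik they were -0.08 and 0.99 (SE 0.17, edgeR adjusted p = 0.0341).

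For Fbxl4 the cerebrum value was 0.23 and the difference of 0.50 did not pass (SE 0.13, edgeR adjusted p = 0.117). Klf9 was more abundant in cerebrum, at 191 and 204 CPM in Tol and WT, with a log2 fold change of -0.10 and a difference of -0.72 that did not pass (SE 0.21, edgeR adjusted p = 0.131). The corresponding differences were 0.77 for Cirbp (SE 0.26, edgeR adjusted p = 0.166), -0.47 for Hspa8 (SE 0.14, edgeR adjusted p = 0.139) and 0.60 for Rpl13 (SE 0.13, edgeR adjusted p = 0.0822).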

How the data were processed

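RNA came from frozen tissue and poly(A)-selected, stranded libraries. Per the labels, the authors ran Salmon 0.14.1 against GRCm38 transcripts plus the Tol sequence. The deposited values are gene-level estimated counts, rounded and not normalized, and 0 columns were left unused. The counting's strand setting and the transcript release are not given in the sources used here.

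Tol and WT thymi were compared in R 4.3.3 with edgeR 4.0.16 (TMM, filterByExpr, quasi-likelihood F test, Benjamini-Hochberg adjustment over 16248 genes). Adjusted p-values are edgeR's unless DESeq2 1.42.0 is named. SE is the absolute log2 fold change divided by the square root of F. Symbols, positions and median transcript lengths come from GENCODE vM21 and cover 34530 of 34584 identifiers. The fit was tested on simulated counts. The labels do not say how replicate libraries relate to litters or days, and p-values measure the spread between these libraries only. Chi-square per degree of freedom between libraries of a group was 16.6 to 26.5 for Tol 1, the largest library, against the other Tol thymi. It was 4.98 to 10.4 for all other pairs. No library was thus a re-sequenced copy of another, but separate preparations from 1 mouse could not be told from different mice this way. For its thymus data the paper's figure legend gives 4 Tol and 4 WT mice. Below 3 counts (0.0863 to 0.184 CPM) a gene counts as not detectable, for counting error only.

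The members, the gene lists and the comparison with cerebrum were chosen with earlier results of these data known. Named are the 16 genes with an adjusted p under 0.05, the 10 with the lowest p among those under 0.10 whose log2 fold change exceeds 1 in size, and of each list up to 4 genes with the lowest p and its defining markers. Nr3c1, Hspb1, Hspd1, Mt1, Sgk1, Dbp, Cd80, Dnaja1, Dnajb4, Hspa1a, Tsc22d3 and mt-Nd3, the mesothelium list, the immunoglobulin and T cell receptor lists, the sterol letters and the heat shock pairs were chosen after values were seen. Genes of a list of nuclear long non-coding RNAs are not analysed here. Alternatives were other normalizations, tools, moderation, filters, all 22 libraries in 1 fit, a replicate block, length and GC offsets, thinned counts and left-out libraries.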

Additional observations from a re-analysis of the deposited data

Results flagged for a closer look

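Of 273 groups of 4 values examined, 9 had 1 value set apart from the other 3 by most of the range (Dixon's test), and chance sets apart about 1 in 20. The library total of Tol 1 was 34776973, against 18519829 to 20527399 for the other Tol thymi, and that of WT 4 was 29145285, against 16319117 to 17940261. Among genes, Chordc1 was at 130.6 CPM in Tol 3 (others 100.1 to 104.2), Cd3d at 312.3 CPM in WT 4 (278.2 to 281.6), Hspa5 at 383.4 CPM in WT 4 (362.6 to 363.6) and Igkv3-12 at 1.39 CPM in WT 1 (0.681 to 0.696). Among list levels on log2(CPM + 1), the cell cycle list was at 7.23 in Tol 3 (7.499 to 7.519), the muscle list at 1.83 in Tol 2 (1.90 in each of the others) and the splicing regulators at 8.14 in WT 2 (8.21 to 8.22).

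The effect of Tol differed between thymus and cerebrum, by edgeR's test of the genotype by organ term, for 6 genes named in the text. The differences in log2 fold change were -1.12 for Banp, 0.72 for Ctso, 0.92 for Slc14a1, -1.14 for Hsph1, 0.99 for B230118H07Rik and -2.05 for Ildr2. With the replicate number as a block none of the 17774 genes passed. The 6 genes had been picked by low p in the same thymus libraries, which favoured their passing here.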

How the results depend on the processing

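The 16 thymus genes became 1296 with DESeq2, 38 with robust moderation, 130 with no filter on low counts, 85 with at least 10 counts in every library, 1808 without Tol 1 and WT 4 together and 1 without Tol 2 and Tol 4 together (chosen after seeing the data). The count was 0 to 2981 with each library left out in turn, with 2573 to 4231 genes at an unadjusted p under 0.05 where it was 0. DESeq2 size factors, the edgeR 4 quasi-likelihood fit (added after seeing the data), all 22 libraries in 1 fit, length and GC offsets and thinned counts gave 13 to 22 genes. Of the 16, 6 passed with all 22 libraries, 11 with the offsets, 12 with thinned counts and 4 with the block. The legacy quasi-likelihood fit is the default of the edgeR version used and is the fit reported. With the replicate number as a block 5 genes passed, and the 19 genes that differed between thymus and cerebrum became 0. Same-numbered thymi correlated at 0.29, -0.27, -0.46 and -0.20, and differently numbered Tol and WT thymi at -0.28 to 0.46. Such correlations cannot show whether same-numbered thymi share a litter or day. For thymus against cerebrum, DESeq2 gave 495 genes, and leaving out each library 2 to 1111. Where the cause is not in the alternative's construction, it was not tested. Over 1892 pairs of a gene and an alternative, 0 changed sign, 144 lost and 215 gained an adjusted p under 0.05. These genes were mostly picked by low p in the same libraries, so few changes of sign could arise. Genes named above with changes near 0, such as Aire, Fezf2 and Hspb1, were not among them. Of 760 list medians, 30 moved by more than the spread between mice. Levels of a few counts, as in Slc10a6 and Igkv3-12, are limited by depth, and Igkv3-12 was under 3 counts in Tol 2 and Tol 4.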
